A study of Mus musculus with 10 samples.

Results

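The 30 genes described here encode enzymes of the citric acid cycle, the carriers and enzymes that move reducing equivalents and metabolites across the inner mitochondrial membrane, and the enzymes that make and use glutamate and glutamine. They were taken by name from a table of 55335 genes measured by RNA-seq in mouse heart. All 30 were present. Levels are in FPKM, fragment counts scaled to transcript length and to the library's mapped fragments, and the 28 genes that averaged 1 FPKM or more in the 10 samples were tested. The other two, Me2 and Pck2, lay below that level. The hearts came from male mice labelled wild type. The 5 control hearts were from offspring of dams given phosphate-buffered saline in pregnancy, and the 5 PAMH hearts from offspring of dams given anti-Müllerian hormone in pregnancy, which is used as a model of polycystic ovary syndrome. The study asked how such hearts are altered. The labels used here name no age, strain, dose, injection day or litter and do not say that the samples are separate animals, so a p-value compares the groups only with the spread among these 10 samples, part of which may be technical.

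The citric acid cycle oxidises acetyl groups to carbon dioxide in the mitochondrial matrix and passes their electrons to the respiratory chain. The malate-aspartate shuttle brings the electrons of cytosolic NADH into the matrix with a cytosolic and a mitochondrial malate dehydrogenase, a cytosolic and a mitochondrial aspartate aminotransferase, and carriers for malate and aspartate. Heart muscle relies on this shuttle when it burns glucose or lactate. Glutamate links the shuttle and the cycle to amino acid metabolism, and glutamine synthetase, the product of Glul, joins ammonia to glutamate to form glutamine.

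One of the 28 tested genes passed the test. Glul was lower in PAMH hearts by 0.74 on the log2 scale, while 27 genes did not pass the test (limma on log2(FPKM + 1), Benjamini-Hochberg adjusted p under 0.05 over all 9439 tested genes). No member was higher. Among all tested genes 6.19% passed, with 4.95% higher and 1.24% lower. When each sample was scaled by its median ratio, the split of all genes went from 467 higher and 117 lower to 218 higher and 212 lower, the median log2 fold change of all genes went from 0.07 to -0.0039, and Glul was again the 1 member called. The median log2 fold change of the 28 genes was 0.02 in the deposited scale. At an unadjusted p under 0.05, 7 of the 28 passed, beside 24.0% of all tested genes. Without PAMH replicate 3, 5 members were higher (Idh3a, Got1, Slc25a12, Me1 and Slc25a10) and Glul was lower. In that setting the calls among all 9439 tested genes also rose, to 979 higher and 147 lower.

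**Figure D1:**
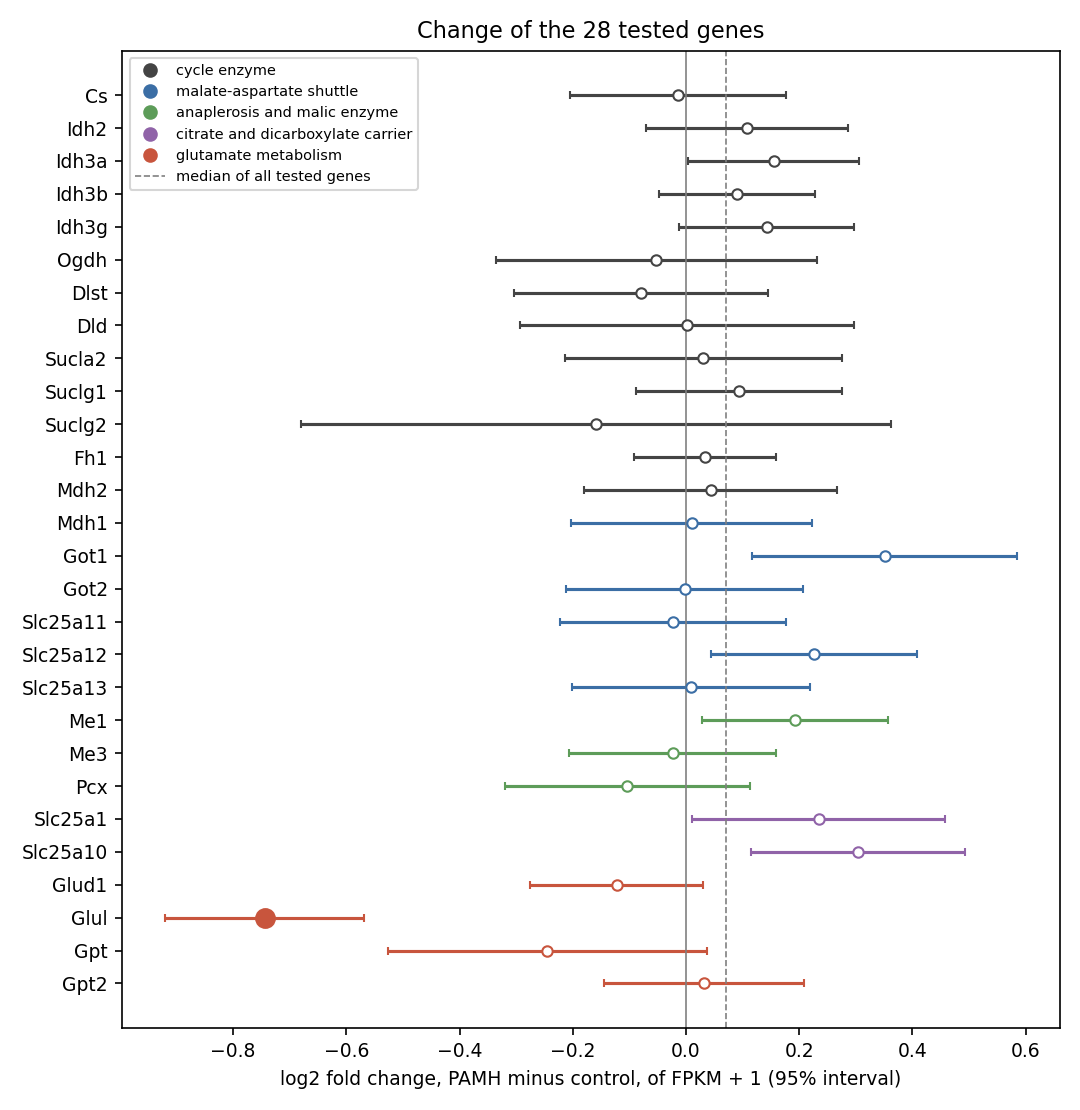
Log2 fold change of FPKM + 1 (PAMH minus control, x axis) of each of the 28 tested genes (y axis), with the 95% interval from limma; colours mark the roles, the filled large point is past the threshold, and the dashed line is the median of all tested genes. Glul, at -0.74, is the 1 gene past the threshold, while the intervals of 12 of the 13 cycle enzymes include 0.

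Glul lies on chromosome 1 (153899944 to 153909723, plus strand, GRCm38). Its FPKM in control replicates 1 to 5 was 83.4, 105.6, 87.8, 100.2 and 81.3. In PAMH replicates 1 to 5 it was 53.8, 54.6, 55.8, 50.7 and 55.2. Every PAMH heart was below every control heart, and the PAMH values lay close together. The mean went from 91.7 ± 10.7 to 54.0 ± 1.99 FPKM (SD, n = 5 each), a level in controls 1.70 times that in PAMH hearts (log2 fold change -0.74, SE 0.08, limma adjusted p = 0.000663). In bulk tissue, fewer cells of a type and less RNA per cell cannot be told apart. Glul was called in all 22 other settings, with log2 fold changes from -0.88 to -0.69. It shares 116 exon bases with Teddm2 on the opposite strand, which averaged 0.149 FPKM, and 93 with the microRNA gene Mir8114 on the same strand, which was listed at 42.8 FPKM and whose fragments cannot be told apart from those of Glul.

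Glul is known as a gene induced by glucocorticoids and by forkhead factors of the FoxO family in muscle and other tissues. The bases upstream of its RefSeq start site (chr1:153899679-153899928, plus strand, GRCm38.p6) are shown because Glul carried the called change, and those of Got1 (chr19:43524606-43524855, minus strand) because its ratio to Got2 separated the groups, as described further on. Both are written 5′ to 3′ up to the last base before the start. Capitals mark the CCAAT box (CCAAT on either strand), the core spacing of a glucocorticoid receptor element (ACANNNTGT, the same on both strands) and the short form of the site of the estrogen-related receptors (AAGGTCA on either strand). No marked letters of these motifs overlap each other.
Glul: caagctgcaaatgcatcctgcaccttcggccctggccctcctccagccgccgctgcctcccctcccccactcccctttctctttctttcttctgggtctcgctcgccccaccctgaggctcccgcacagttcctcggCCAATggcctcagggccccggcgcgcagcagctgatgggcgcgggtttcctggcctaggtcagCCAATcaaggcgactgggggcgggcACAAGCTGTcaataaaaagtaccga
Got1: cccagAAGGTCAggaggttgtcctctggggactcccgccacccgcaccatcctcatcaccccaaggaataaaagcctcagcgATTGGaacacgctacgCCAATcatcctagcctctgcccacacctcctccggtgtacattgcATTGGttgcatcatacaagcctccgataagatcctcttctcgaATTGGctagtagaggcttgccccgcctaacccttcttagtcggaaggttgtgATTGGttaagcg
The Glul sequence holds 2 CCAAT boxes and 1 match to the glucocorticoid receptor core, and the Got1 sequence holds 5 CCAAT boxes and 1 short receptor site. Of 27025 genes with such a window of 250 bases in RefSeq, 37.5% held a CCAAT box, 6.76% the glucocorticoid receptor core and 4.70% the short receptor site. Of the 27 members with a window, 16 held a CCAAT box, 2 the core (Glul and Ogdh) and 1 the short receptor site (Got1). None of the 27 held the forkhead letters TGTTTAC, which 3.54% of all genes held, or the full estrogen-related receptor letters TCAAGGTCA, which 0.422% held. The full letters contain the short ones. A match is a description of these letters, not a site of binding.

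The other genes of glutamate metabolism did not pass. Glud1, glutamate dehydrogenase, which converts glutamate to 2-oxoglutarate, had 22.4 ± 0.795 FPKM in control and 20.6 ± 1.69 in PAMH hearts (log2 fold change -0.12, limma adjusted p = 0.311). The ratio of Glul to Glud1 within each heart was 3.68, 4.57, 4.16, 4.36 and 3.66 in control replicates 1 to 5. It was 2.44, 2.45, 2.84, 2.78 and 2.68 in PAMH replicates 1 to 5. The groups did not overlap in this ratio, which does not move with a factor common to all genes of a sample (difference of log2 ratios of FPKM + 1 -0.62, exact 2-sided permutation p = 0.00794, the smallest that 5 against 5 samples allow, adjusted p = 0.0437 over 11 gene pairs). Glul alone already separated the groups, so this ratio restates the Glul difference and is not a separate result. Gpt, cytosolic alanine aminotransferase, had 5.24 ± 0.593 and 4.33 ± 1.05 FPKM, and Gpt2, its mitochondrial counterpart, 4.64 ± 0.368 and 4.78 ± 0.507 FPKM. Their ratio was 1.13 ± 0.141 in control and 0.901 ± 0.167 in PAMH hearts, and the groups overlapped (exact permutation p = 0.0556, adjusted p = 0.122).

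**Figure D2:**
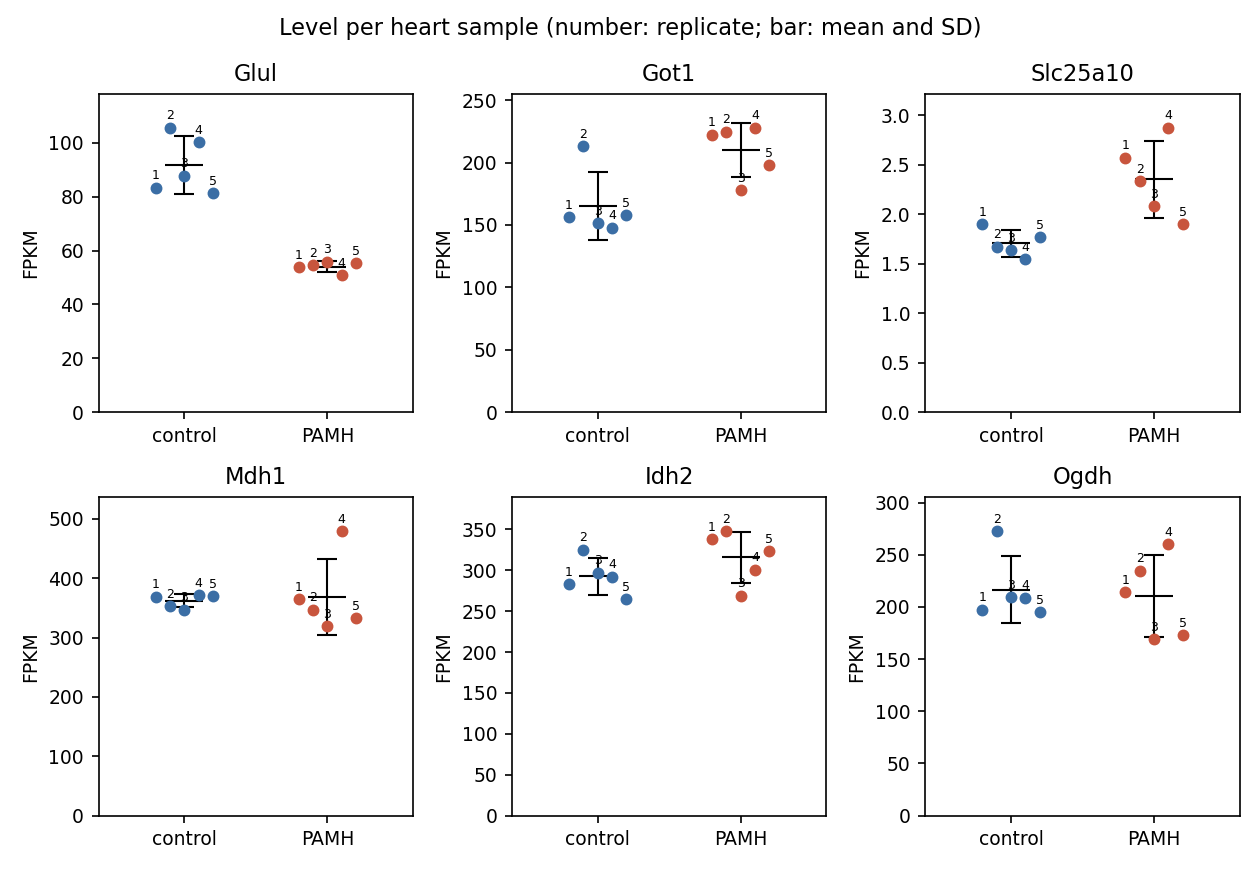
FPKM (y axis) of 6 genes in each control and PAMH heart sample (x axis), with the replicate number above each point and the mean and SD as bars. All 5 PAMH values of Glul lie below all control values, whereas the groups overlap for Got1, Mdh1, Idh2 and Ogdh.

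None of the 13 genes of cycle enzymes passed the test. Their log2 fold changes ran from -0.16 (Suclg2) to 0.16 (Idh3a), with a median of 0.03. In the deposited scale 9 of the 13 were positive, beside 67.3% of all tested genes, and under median ratio scaling 3 were (Idh2, Idh3a and Idh3g), beside 48.9%. The sum of their FPKM was 1265 to 1446 in control and 1197 to 1453 in PAMH hearts. Cs, citrate synthase, which makes citrate from acetyl-CoA and oxaloacetate, had 130.8 ± 10.05 and 129.9 ± 14.9 FPKM (log2 fold change -0.01, 95% interval -0.21 to 0.18). Fh1, fumarase, had the smallest SE of the 28 genes (0.06), with 74.6 ± 1.13 and 76.5 ± 3.59 FPKM (95% interval of the log2 fold change -0.09 to 0.16). Neither interval reaches the size of the Glul change.

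Isocitrate is oxidised in the matrix by the NADP-dependent enzyme of Idh2 and by the NAD-dependent enzyme of Idh3a, Idh3b and Idh3g. Idh2 had 283.1, 325.0, 297.1, 292.1 and 264.4 FPKM in control replicates 1 to 5. It had 337.9, 347.7, 269.0, 300.5 and 323.1 FPKM in PAMH replicates 1 to 5. The groups overlapped, with PAMH replicate 3 among the lowest (log2 fold change 0.11, SE 0.08, limma adjusted p = 0.455). Of the NAD-dependent subunits, Idh3b had the highest level (104.5 ± 4.49 and 111.4 ± 6.52 FPKM), Idh3a, the catalytic subunit, had 74.8 ± 2.12 and 83.6 ± 7.05, and Idh3g 64.0 ± 1.118 and 71.0 ± 6.65. Idh3a had the smallest unadjusted p of the cycle enzymes (0.0453, limma adjusted p = 0.198), and without PAMH replicate 3 it passed at an adjusted p of 0.0476. The ratios Idh3a/Idh3b and Idh2/Idh3a had exact permutation p of 0.405 and 0.437.

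The 2-oxoglutarate dehydrogenase complex oxidises 2-oxoglutarate to succinyl-CoA with the subunits encoded by Ogdh, Dlst and Dld. Ogdh had 197.3, 272.7, 209.2, 209.0 and 195.2 FPKM in control replicates 1 to 5. It had 214.4, 234.8, 169.0, 260.1 and 173.0 FPKM in PAMH replicates 1 to 5. Control replicate 2 held the highest value of all, and the groups overlapped (log2 fold change -0.05, SE 0.13, limma adjusted p = 0.841). Dlst, the succinyl-transferring core, had 14.8 ± 1.33 and 14.0 ± 2.15 FPKM, and Dld, the dehydrogenase that this complex shares with pyruvate dehydrogenase, 51.3 ± 8.65 and 51.3 ± 7.93. The level of Ogdh was 14.7 ± 2.12 times that of Dlst in control and 15.0 ± 0.743 times in PAMH hearts.

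Succinyl-CoA ligase pairs the common subunit of Suclg1 with an ADP-specific (Sucla2) or GDP-specific (Suclg2) partner. Suclg1 had 41.8 ± 1.04 and 45.0 ± 5.52 FPKM, and Sucla2 49.1 ± 6.41 and 50.1 ± 6.48. Suclg2 had the largest SE of the 28 genes (0.24), from 12.7 to 22.2 FPKM among controls and from 9.74 to 24.5 FPKM among PAMH hearts. Sucla2 exceeded Suclg2 in all 10 hearts, by 1.84 to 4.36 times, with no difference between the groups that passed the test (exact permutation p = 0.508). Mdh2, the malate dehydrogenase of the matrix, had 191.7 ± 19.1 and 198.5 ± 27.8 FPKM. The sign of the fold change of Idh2, Idh3b, Dld, Sucla2, Suclg1, Fh1 and Mdh2 turned under quantile normalization, and that of Cs turned positive when all samples were set to an equal FPKM total.

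In the malate-aspartate shuttle, cytosolic Mdh1 had the highest level of the 30 genes. Its FPKM was 368.9, 352.7, 347.2, 371.0 and 370.3 in control replicates 1 to 5. It was 364.8, 347.1, 318.9, 479.3 and 332.5 in PAMH replicates 1 to 5. PAMH replicate 4 stood above the others, and the remaining PAMH values were within or below the control range (log2 fold change 0.01, SE 0.10, limma adjusted p = 0.963; -0.09 without PAMH replicate 4). Mdh1 exceeded Mdh2 1.90 ± 0.203 times in control and 1.86 ± 0.186 times in PAMH hearts (exact permutation p = 0.738).

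Got1, the cytosolic aspartate aminotransferase, had 147.8 to 157.9 FPKM in 4 controls and 213.3 in control replicate 2. PAMH hearts had 177.7 (replicate 3) to 228.0 FPKM. The 2 groups overlapped only through control replicate 2, which exceeded PAMH replicates 3 and 5. Got1 did not pass (165.4 ± 27.1 and 210.2 ± 21.8 FPKM, log2 fold change 0.35, SE 0.11, limma adjusted p = 0.0732). It passed without control replicate 2 (0.45, adjusted p = 0.0165), without PAMH replicate 3 (0.41, adjusted p = 0.0290) and with sample weights (0.40, adjusted p = 0.0161). Its mitochondrial counterpart Got2 had 124.3 ± 14.9 and 124.1 ± 13.2 FPKM (log2 fold change -0.0025, 95% interval -0.21 to 0.21).

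The ratio of Got1 to Got2 separated the groups more cleanly than Got1 itself. It was 1.32, 1.42, 1.22, 1.29 and 1.38 in control replicates 1 to 5 and 1.71, 1.70, 1.71, 1.67 and 1.69 in PAMH replicates 1 to 5. All 5 PAMH ratios lay above all control ratios, PAMH replicate 3 and control replicate 2 included, and the SD within the PAMH group was 0.0168. The mean ratio was 1.33 ± 0.0778 in control and 1.70 ± 0.0168 in PAMH hearts (difference of log2 ratios 0.35, exact permutation p = 0.00794, adjusted p = 0.0437 over 11 pairs). Glul/Glud1, which restates the Glul difference, has the same adjusted p. The pass of Got1/Got2 depends on Glul/Glud1 being among the 11 pairs adjusted together. Got1/Got2 kept an adjusted p under 0.05 with a pseudocount of 0.1, under median ratio scaling and without any 1 sample, as did Glul/Glud1. Both lost it without PAMH replicates 4 and 5 together (adjusted p = 0.0655), where the smallest exact p is 0.0179. Scaling and the omission of 1 sample could hardly have ended either call, so they say little about it. A factor common to a sample nearly cancels in a ratio, and separate groups stay separate when any 1 sample is left out. The G and C content of the longest coding transcript was 52.3% for Got1 and 54.5% for Got2. The Got2 pseudogene Got2-ps1 averaged 11.0 FPKM beside 124.2 for Got2, and how reads were divided between such copies is not given in the sources used here.

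**Figure D3:**
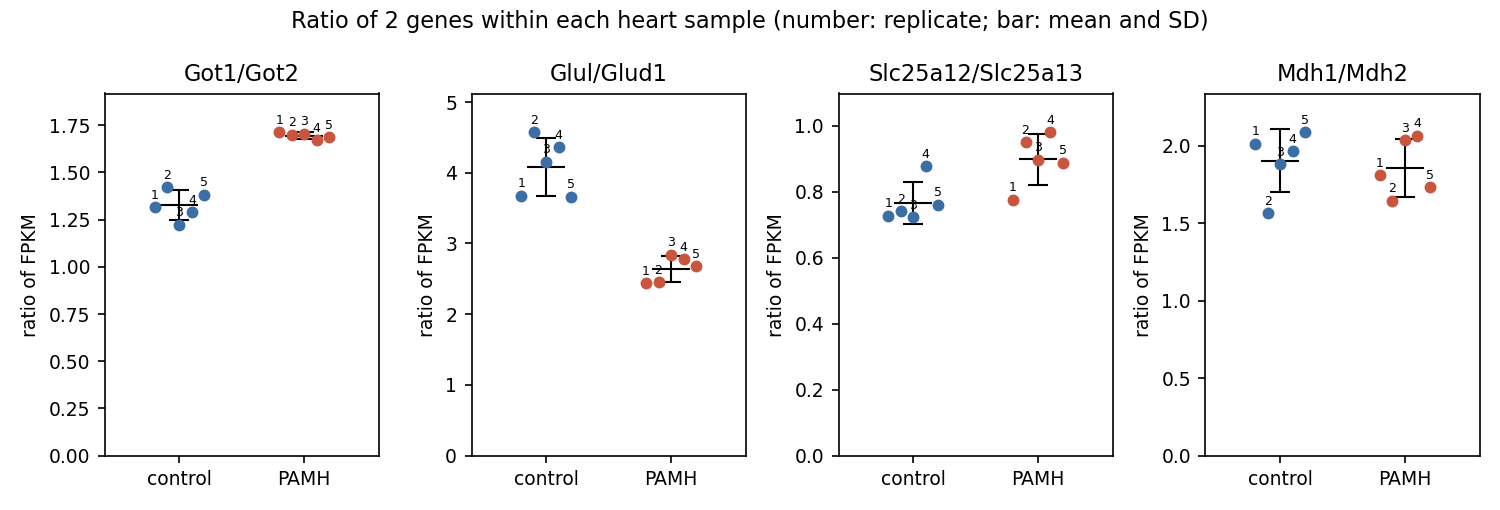
Ratio of the FPKM of 2 genes (y axis) within each control and PAMH heart sample (x axis), with the replicate number at each point and the mean and SD as bars. The Got1/Got2 ratio lies between 1.22 and 1.42 in controls and between 1.67 and 1.71 in PAMH hearts, and the Mdh1/Mdh2 ratios of the groups overlap.

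The shuttle's carriers did not pass singly. Slc25a11, the 2-oxoglutarate and malate carrier, had 138.0 ± 8.44 and 136.5 ± 17.3 FPKM. Of the 2 aspartate-glutamate carriers, Slc25a12, best known from brain and muscle, had 17.7 ± 1.27 and 20.9 ± 2.19 FPKM (log2 fold change 0.23, limma adjusted p = 0.124), and Slc25a13, best known from liver, had 23.2 ± 2.30 and 23.4 ± 3.02. Slc25a12 passed without PAMH replicate 3 (adjusted p = 0.0297). Slc25a12 was below Slc25a13 in FPKM in all 10 hearts. The ratio Slc25a12/Slc25a13 was 0.766 ± 0.0643 in control and 0.898 ± 0.0781 in PAMH hearts (exact permutation p = 0.0159, adjusted p = 0.0437). That call ended with a pseudocount of 0.1 (adjusted p = 0.0582) and without any 1 of 9 samples. It also depends on Glul/Glud1 being among the pairs adjusted together.

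Malic enzymes turn malate into pyruvate. Cytosolic Me1, which yields NADPH, had 27.0 ± 1.57 and 31.1 ± 2.67 FPKM (log2 fold change 0.19, limma adjusted p = 0.144), and passed without PAMH replicate 3 (adjusted p = 0.0327). The mitochondrial NADP-dependent form Me3 had 3.77 ± 0.342 and 3.70 ± 0.453 FPKM. The ratio Me1/Me3 was 7.19 ± 0.479 and 8.44 ± 0.694 (exact permutation p = 0.0159, adjusted p = 0.0437), and this call ended with a pseudocount of 0.1 (adjusted p = 0.0655) and without any 1 of 8 samples. The Me1/Me3 call also depends on Glul/Glud1 being among the pairs adjusted together. Me3 shares 569 exon bases with an antisense gene, A230065N10Rik, which averaged 0.360 FPKM beside 3.74 for Me3. Me2, the mitochondrial NAD-dependent form, had 0.742 ± 0.112 and 0.837 ± 0.136 FPKM, below the filter.

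Pcx, pyruvate carboxylase, which refills oxaloacetate from pyruvate, had 3.62 ± 0.463 and 3.31 ± 0.538 FPKM (log2 fold change -0.10, limma adjusted p = 0.562). Pck2, the mitochondrial enzyme that turns oxaloacetate into phosphoenolpyruvate, had 1.01 ± 0.123 and 0.834 ± 0.273 FPKM and was also below the filter. With no filter, neither Me2 (limma adjusted p = 0.704) nor Pck2 (adjusted p = 0.664) passed.

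Slc25a10, the dicarboxylate carrier, which exchanges malate or succinate for phosphate, was the other gene whose groups did not overlap. Its FPKM was 1.90, 1.67, 1.64, 1.55 and 1.77 in control replicates 1 to 5. In PAMH replicates 1 to 5 it was 2.58, 2.33, 2.08, 2.88 and 1.90. The highest control and the lowest PAMH value were nearly equal, at 1.899 and 1.900 FPKM, and the gene did not pass (log2 fold change 0.30, SE 0.09, limma adjusted p = 0.0593). Glul and Slc25a10 were thus 2 of 28 tested members with separate groups, beside 8.44% of all tested genes (6.74% with PAMH above and 1.71% with PAMH below). Slc25a1, the citrate carrier, had 1.33 ± 0.259 and 1.74 ± 0.346 FPKM (log2 fold change 0.23, adjusted p = 0.188). Both carriers stood near the filter, where log2(FPKM + 1) understates a change.

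Single samples moved many of the members at once. Control replicate 2 had the highest control value for 20 of the 28 tested genes, against 30.4% of all tested genes, and the lowest for Idh3b, Dld and Sucla2, against 23.5%. PAMH replicate 3 had the lowest PAMH value for 17 of the 28, against 33.7% of all genes. PAMH replicate 4 had the highest PAMH value for 13, against 34.9% of all genes, and the lowest for 6, against 28.8%, among them Dld and Sucla2. The transcripts of Dld and Sucla2 have the lowest G and C content of the 28 (40.6% and 43.2%). Across the 28 genes, Spearman's rho between this content and the log2 deviation of control replicate 2 from the other controls was 0.41, and for PAMH replicate 4 against the other PAMH samples 0.44. Across 8556 genes it was 0.44 and 0.46. For the difference between PAMH and control it was 0.081 over the 28 members and 0.14 over the 8556 genes. The coefficient of variation was larger in the PAMH than in the control group for 23 of the 28 members and for 77.2% of all tested genes. The median of the members was 8.46% in control and 12.3% in PAMH hearts, and that of all tested genes 10.2% and 15.5%. Without PAMH replicates 3 and 4 the PAMH median was 6.70% for the members and 10.7% for all tested genes. Leaving out the extreme samples of a group lowers its spread in any case. Genes are not independent replicates, and the part of composition or RNA quality in these deviations was not tested.

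**Figure D4:**
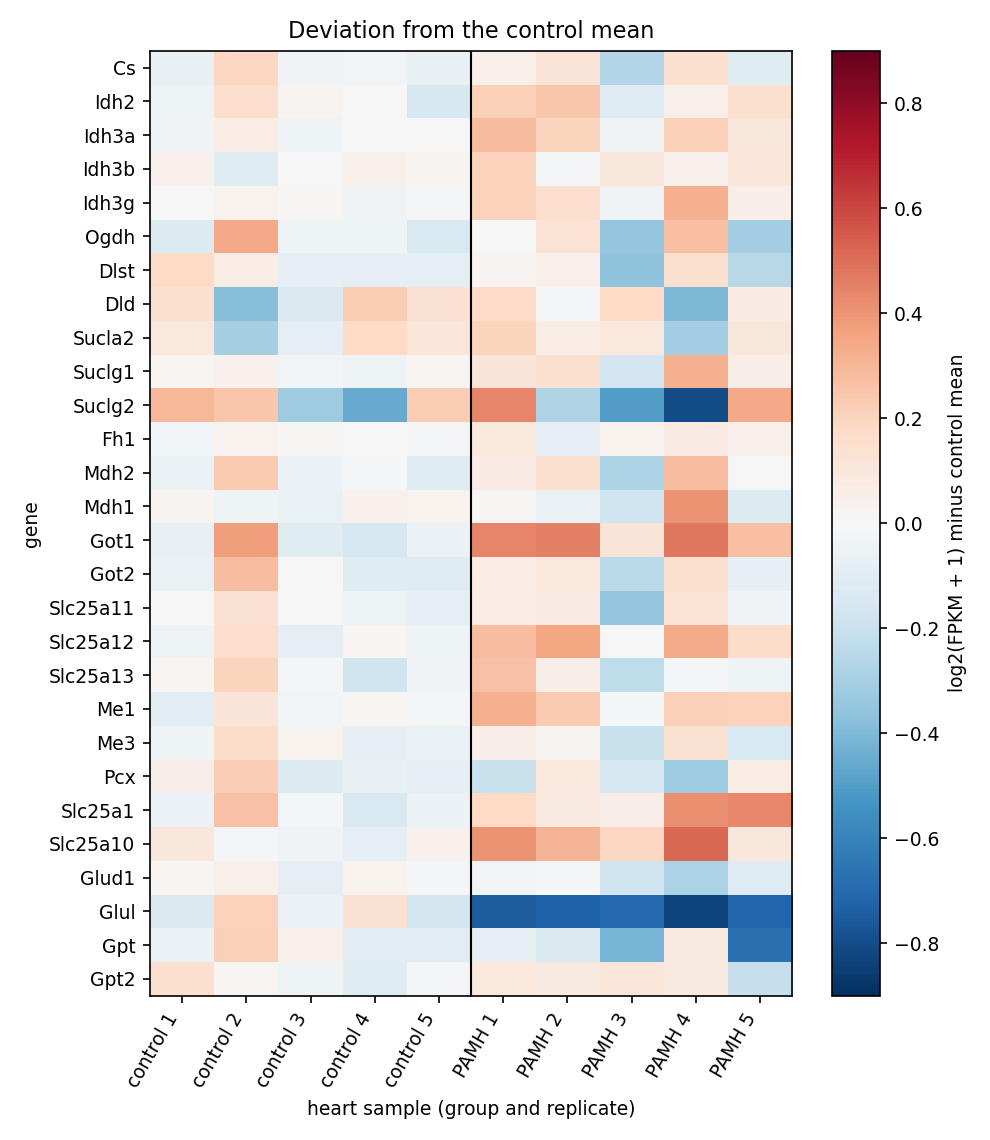
Log2(FPKM + 1) minus the control mean (colour) of the 28 tested genes (rows) in each heart sample (columns, controls left of the line). Glul is low in all 5 PAMH hearts, control replicate 2 is high in 20 genes relative to the other controls, and Dld and Sucla2 are low in control replicate 2 and PAMH replicate 4.

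Other genes next to these pathways came from 6 lists, which were chosen with earlier results of these data known. Among 9 further shuttle and carrier genes, 7 were tested and 2 were higher, beside 4.95% of all tested genes. Gpd1, the cytosolic glycerol-3-phosphate dehydrogenase, which starts the other NADH shuttle of the cell, had 12.4, 15.9, 13.9, 14.6 and 13.7 FPKM in control replicates 1 to 5. In PAMH replicates 1 to 5 it had 26.5, 25.3, 20.9, 29.0 and 27.0 FPKM. All PAMH values were above all control values, and the mean of Gpd1 rose from 14.1 ± 1.29 FPKM to 25.7 ± 3.01 FPKM (a log2 fold change of 0.82, SE 0.09, limma adjusted p = 0.000796). Its mitochondrial partner Gpd2 had 1.31 ± 0.147 and 1.30 ± 0.104 FPKM (adjusted p = 0.998). Slc16a1, a monocarboxylate carrier for lactate and pyruvate, rose from 35.4 ± 2.65 FPKM in controls to 52.8 ± 9.30 FPKM (log2 fold change 0.55, adjusted p = 0.0156; adjusted p = 0.0588 with no filter). The mitochondrial pyruvate carrier gene Mpc2 did not pass (log2 fold change 0.13).

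Of 12 further cycle enzymes, 10 were tested and none passed (limma), with 2 at an unadjusted p under 0.05. The smallest p was that of cytosolic Idh1, with 9.07 ± 0.924 and 12.1 ± 1.72 FPKM (log2 fold change 0.37, limma adjusted p = 0.0545). Aco1 did not pass either (0.22, adjusted p = 0.226). Of 14 further glutamate and glutamine genes, 8 were tested and none passed, with 1 at an unadjusted p under 0.05. This was Aldh4a1, which forms glutamate from a proline breakdown product, with 15.7 ± 1.099 and 12.7 ± 1.57 FPKM (log2 fold change -0.29, adjusted p = 0.0679). Prodh was next (-0.17).

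Of 9 regulators of mitochondrial genes, 8 were tested and 1 passed, beside 6.19% of all tested genes. Esrra, a nuclear receptor that acts on many genes of oxidative metabolism, rose from 20.1 ± 1.24 FPKM in controls to 28.2 ± 3.02 FPKM (a log2 fold change of 0.46, SE 0.08, limma adjusted p = 0.00808), and its groups did not overlap. Ppargc1a (-0.43, adjusted p = 0.115) and Tfam (0.22, adjusted p = 0.228) did not pass. Me1 is a known target of the transcription factor NRF2. Of 12 other NRF2 target genes 11 were tested, and 0 passed by limma, also at an unadjusted p under 0.05. The 3 with the smallest p were Srxn1 (0.17), Gclc (-0.17) and Gclm (-0.14). Pck2 is a known target of the stress factor ATF4. Of 11 other ATF4 target genes 6 were tested and 1 was lower, beside 1.24% of all tested genes. This was Chac1, from 3.16 ± 0.755 to 1.30 ± 0.347 FPKM (log2 fold change -0.85, limma adjusted p = 0.00581), while Ddit3 (0.24) and Atf5 (0.23) did not pass.

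**Figure D5:**
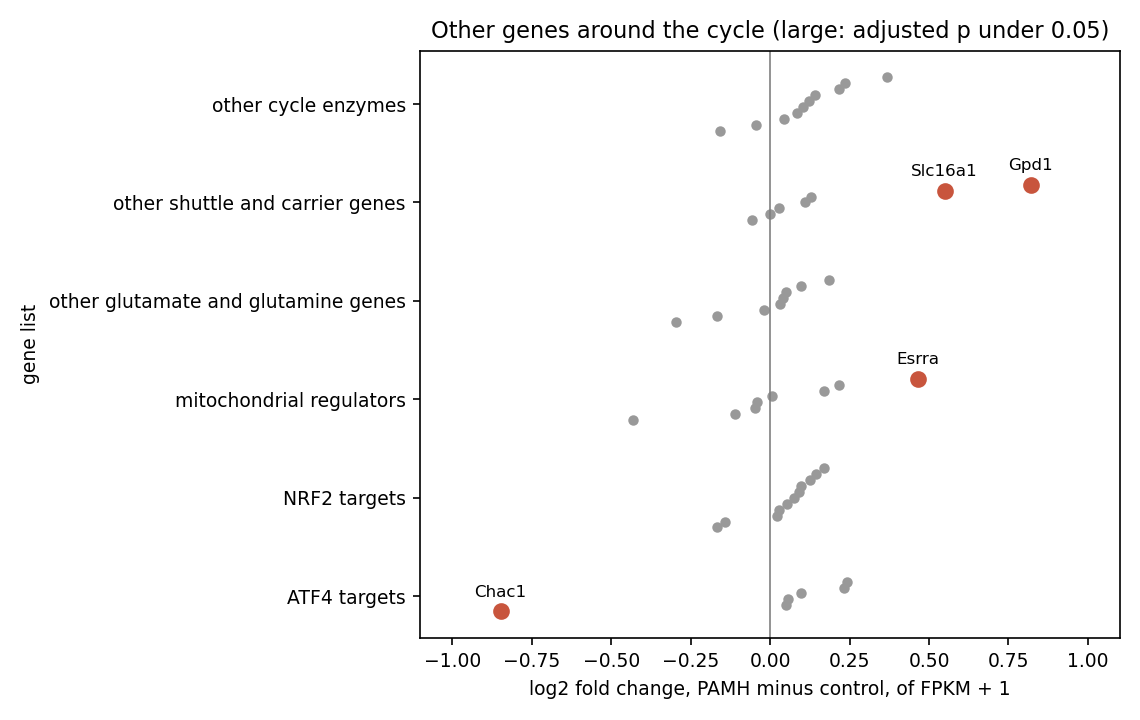
Log2 fold change of FPKM + 1 (PAMH minus control, x axis) of the tested genes in 6 lists of neighbouring pathways (y axis), each point a gene and large red points past an adjusted p of 0.05. Gpd1, Slc16a1 and Esrra lie at 0.82, 0.55 and 0.46, Chac1 at -0.85, and the other points are not past the threshold.

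The label heart was checked against markers. The summed FPKM of 7 cardiomyocyte markers was 8279 to 10480 in control and 7310 to 12540 in PAMH hearts, and none of them passed. Markers of hepatocytes (4 genes, summing to at most 0.658 FPKM) and of white adipocytes (6 genes, at most 1.37 FPKM) were at or near 0, as were the skeletal myosin genes Myh1, Myh2 and Myh4. None of 6 endothelial markers (sums of 69.5 to 85.9 and 62.9 to 78.6 FPKM) and none of 6 fibroblast markers (76.6 to 88.8 and 68.6 to 90.7 FPKM) passed. Of 6 macrophage markers, Cd68 was higher and 5 did not pass (sums of the 6 of 172.3 to 214.1 and 170.7 to 217.4 FPKM). Of 6 smooth muscle and pericyte markers 5 were tested and Acta2 was higher, at 25.4 to 41.4 FPKM in control and 50.2 to 100.9 FPKM in PAMH hearts. The other 4 did not pass, with log2 fold changes from -0.01 (Rgs5) to 0.07 (Myh11). The sum of all 6, Acta2 included, was 81.6 to 121.2 and 132.0 to 176.1 FPKM. Of 3 brown adipocyte markers Cidea was higher and Ucp1 was listed at 0 in 9 samples. Of 6 skeletal muscle markers Ckm, also a heart gene, was tested and did not pass. The 5 erythroid markers did not pass, with sums of 111.8 to 437.4 in control and 97.3 to 863.2 in PAMH hearts, the highest in PAMH replicate 4. The part of cell composition in the lower level of Glul was not tested. The deposited FPKM summed to between 654350 and 717453 per sample, with 51.5% to 56.8% from the mitochondrial genome, and how many reads lie behind each library is unknown. PAMH replicate 4 had 16113 genes above 0 FPKM and PAMH replicate 5 had 18037, beside 19449 to 21097 in the other samples. The part of read depth in these counts was not tested.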

How the data were processed

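The authors deposited a table of FPKM per Ensembl gene for 10 heart samples. The submitters' processing notes list, with no roles, DESeq2 1.18.1, R 3.4.1, HTSeq 0.13.5, HISAT2 2.2.1, Trimmomatic 0.38 and FastQC 0.11.9, and the build mm10. Neither the tool that gave the FPKM nor its strand setting is named. Symbols and coordinates (GRCm38) came from GENCODE vM21, which held 55154 of 55335 identifiers, and promoters from RefSeq. Values were analysed as log2(FPKM + 1) for the genes averaging 1 FPKM or more, with limma 3.58.1 in R 4.3.3 (group term, intensity trend, 2-sided, Benjamini-Hochberg over all tested genes, threshold 0.05). The fit was tested on simulated data. Ratios of 11 gene pairs were tested by exact 2-sided permutation over all 252 assignments of 5 of the 10 samples. Figures used matplotlib 3.10.9.

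Values in every sample are given for members past the threshold, for members whose groups did not overlap and for the 3 with the highest level; of each list, genes past the threshold and up to 3 with the smallest p are named, except a few list genes that are not reported here. Got1, Gpd1 and the pair ratios given per sample, and the lists' genes outside this rule (Gpd2), were chosen after their values were seen. Members and lists were chosen with earlier results of these data known. The same-numbered samples share only a number.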

Additional observations from a re-analysis of the deposited data

Results flagged for a closer look

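Each group of 5 values of the 30 genes and of the 11 ratios was searched for a sample set apart from the rest (a gap to the next sample of over 0.71 of the group's range). Chance flags about 1 in 20 groups; 12 of 82 were found, and the genes share samples. Control replicate 2 was set apart upward for Cs (148.5 FPKM), Ogdh (272.7), Mdh2 (225.1), Got1 (213.3), Got2 (150.1) and Slc25a1 (1.78), and for the ratio Idh3a/Idh3b (0.807). PAMH replicate 4 was set apart upward for Mdh1 (479.3 FPKM) and downward for Sucla2 (39.0 FPKM). Control replicate 4 was high for Pck2 (1.22 FPKM) and for the ratio Slc25a12/Slc25a13 (0.878). PAMH replicate 5 was low for Gpt2 (3.87 FPKM).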

How the results depend on the processing

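Glul was lower, and Gpd1 and Esrra higher, in all 22 alternatives run (pseudocount, filters, scalings, weights, robust fit, protein-coding genes only, replicate block and omitted samples). The count of members called higher, 0 in the main analysis, was 4 with sample weights (Got1, Slc25a12, Me1 and Slc25a10) and 0 to 5 when 1 sample was left out, with 1 (Got1) without control replicate 2, 1 (Slc25a10) without PAMH replicate 5 and 5 without PAMH replicate 3. Among all 9439 tested genes, 467 were called higher in the main analysis and 1038 with sample weights. The count was 979 without PAMH replicate 3, 372 without control replicate 2 and 262 without PAMH replicate 5. Of the genes in the 6 lists, 7 were called higher with sample weights. Of these lists, 2 genes were called lower under median ratio scaling, quantile normalization and omission of the mitochondrial genes. Of the 11 gene pairs, 4 passed by exact permutation, all at the same adjusted p of 0.0437. The share of other gene pairs that would pass was not computed, so this count has no background beside it. Glul/Glud1, 1 of the 4, restates the Glul difference, and the other passes depend on its being among the 11. At a pseudocount of 0.1, 2 pairs passed, and 2 to 4 passed when 1 sample was left out. With the replicate number as a block, 0 pairs passed, where the smallest p of 5 sign flips is 0.0625, and 0 passed without PAMH replicates 4 and 5; Glul was called in the block at -0.74. Same-numbered samples had correlations of -0.19 to 0.16 in their deviations, so the numbers were not taken as pairs; the block left 175 genes higher and 64 lower of all tested genes.

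Members that never passed changed sign as follows. With the same sum in each sample Cs was 0.033, Got2 0.045, Slc25a11 0.025 and Me3 0.015. With sample weights Cs was 0.020, Mdh1 -0.047, Got2 0.037 and Slc25a11 0.0050. With quantile normalization Idh2 was -0.030, Idh3b -0.024, Dld -0.13, Sucla2 -0.11, Suclg1 -0.035, Fh1 -0.11, Mdh2 -0.095, Mdh1 -0.10, Slc25a13 -0.12 and Gpt2 -0.054. With the mitochondrial genes left out Idh2 was -0.0065, Idh3b -0.024, Dld -0.11, Sucla2 -0.082, Suclg1 -0.018, Fh1 -0.079, Mdh2 -0.070, Mdh1 -0.10, Slc25a13 -0.10 and Gpt2 -0.063. Under median ratio scaling Idh3b was -0.0082, Dld -0.094, Sucla2 -0.066, Suclg1 -0.0026, Fh1 -0.063, Mdh2 -0.0545, Mdh1 -0.088, Slc25a13 -0.086 and Gpt2 -0.050. Without PAMH replicates 4 and 5 Mdh2 was -0.023 and Mdh1 -0.077. With 1 sample left out Cs ranged from -0.053 to 0.047, Ogdh from -0.13 to 0.033, Dld from -0.093 to 0.10, Sucla2 from -0.0445 to 0.12, Suclg2 from -0.31 to 0.0030, Mdh2 from -0.015 to 0.13, Mdh1 from -0.088 to 0.059, Got2 from -0.038 to 0.067, Slc25a11 from -0.061 to 0.060, Slc25a13 from -0.055 to 0.067 and Me3 from -0.063 to 0.021, and the log2 ratio difference of Mdh1/Mdh2 from -0.10 to 0.0091 and of Ogdh/Dlst from -0.048 to 0.096. The cause of these shifts was not tested. Read depth is unknown, so no limit of detection is given.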
